A study of Homo sapiens with 40 samples.

Results

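The metallothioneins examined here are the 8 genes MT1A, MT1E, MT1F, MT1G, MT1H, MT1M, MT1X and MT2A, which were picked by gene name from the 56568 gene names of the deposited tables. The rule of choice used the names alone, but the members were proposed with earlier results of these data known. RNA sequencing covered 40 libraries, all from HepaRG cells (HPR 116), a human liver line whose terminally differentiated cultures hold hepatocytes beside primitive biliary cells. There were 8 groups of 5 libraries. Besides the solvent control, these were 3 groups with PCB 126 (100 pM, then 10 nM, then 1 µM), 3 groups with glyphosate (10 µg/L, then 1 mg/L, then 0.1 g/L) and 1 group with Roundup, dosed at 10 µg/L. Cells of every group, the control included, were held from day 8 to day 14 in test medium with 2% serum and 1% DMSO, so no group was free of DMSO. PCB 126, a polychlorinated biphenyl with dioxin-like action, is a ligand of the aryl hydrocarbon receptor, glyphosate is a herbicide, and Roundup is a commercial formulation that contains it. A level is given in FPKM (fragments per kilobase of transcript and per 1000000 mapped fragments), summed over all transcripts listed under that gene name. Levels of different genes are thus scaled by the transcript lengths that the authors' assembly gave. The 5 control libraries served both the PCB 126 comparisons and those with glyphosate and Roundup, so every comparison with the control shares them. The labels do not say that the libraries came from separate cultures, so the p-values measure the spread between these libraries, which may be technical.

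Metallothioneins are small cysteine-rich proteins that hold zinc and copper ions in thiolate clusters and also bind cadmium. The liver is a main site of their expression. Their genes are switched on by zinc and cadmium through the zinc-sensing transcription factor MTF1, which binds metal response elements in the promoters, and they also respond to glucocorticoids, cytokines and oxidative stress. The MT1 genes and MT2A encode the ubiquitous forms, whereas MT3 is best known from the brain and MT4 from stratified epithelia.

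The cysteines and the likeness between members are visible in the coding sequences, given here for the 3 most abundant members, which are also the 3 that could be tested. They come from GENCODE release 44 transcripts on GRCh38, run from the start codon to the stop codon, and have the cysteine codons in capitals.
MT2A: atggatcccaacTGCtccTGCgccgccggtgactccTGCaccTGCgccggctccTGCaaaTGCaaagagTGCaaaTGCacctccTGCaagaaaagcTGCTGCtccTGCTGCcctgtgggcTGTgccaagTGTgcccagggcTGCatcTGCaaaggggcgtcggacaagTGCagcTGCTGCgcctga
MT1E: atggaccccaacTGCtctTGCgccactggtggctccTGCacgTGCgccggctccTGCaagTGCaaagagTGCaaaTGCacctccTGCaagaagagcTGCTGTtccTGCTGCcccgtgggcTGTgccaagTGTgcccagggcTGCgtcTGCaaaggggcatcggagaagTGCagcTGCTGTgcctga
MT1X: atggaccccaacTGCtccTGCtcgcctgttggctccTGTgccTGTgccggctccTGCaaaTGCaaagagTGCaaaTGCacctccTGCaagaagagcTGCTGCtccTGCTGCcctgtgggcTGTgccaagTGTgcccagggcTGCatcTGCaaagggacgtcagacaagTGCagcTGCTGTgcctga
Each of the 8 members has 20 cysteine codons among its 61 codons, or 62 in MT1G. Over the 28 pairs of members the coding sequences were between 88.7% (MT1F and MT1X) and 94.6% (MT1A and MT1E) identical. The reads were 75 bases long, and most windows of this length in the full GENCODE transcripts were found in 1 metallothionein gene only. Of those of the MT2A transcript, none of 327 occurred in a transcript of another metallothionein gene, against 5 of 630 for MT1E and 27 of 330 (8.18%) for MT1X. For MT1H this was 35 of 323 windows (10.8%), for MT1G 22 of 336 (6.55%), and for MT1A, MT1F and MT1M it was 0.

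The 8 members lie in 1 cluster on chromosome 16, between 56608199 and 56684196 on GRCh38 as the files give them, a span of 76 kb. MT2A occupies 56608199 to 56609497, MT1E 56625475 to 56627112, MT1A 56638666 to 56640087 and MT1X 56682424 to 56684196, and 7 of the 8 members are on the plus strand, with MT1G on the minus strand. The files list 25 transcripts under the 8 names. The 3-exon transcripts ENST00000245185, ENST00000306061 and ENST00000394485 carried 80.2% of MT2A, 78.2% of MT1E and 91.5% of MT1X over the 40 libraries. The assembly of the authors also holds 3 transcripts of 3 exons each that join neighbouring genes of the cluster and carry no gene name, so their FPKM are in no member's sum. One spans 75.7 kb from MT2A to MT1X, another 28.3 kb from MT2A to the pseudogene MT1JP, and the shortest 8.0 kb from MT1E to MT1M.

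**Figure D1:**
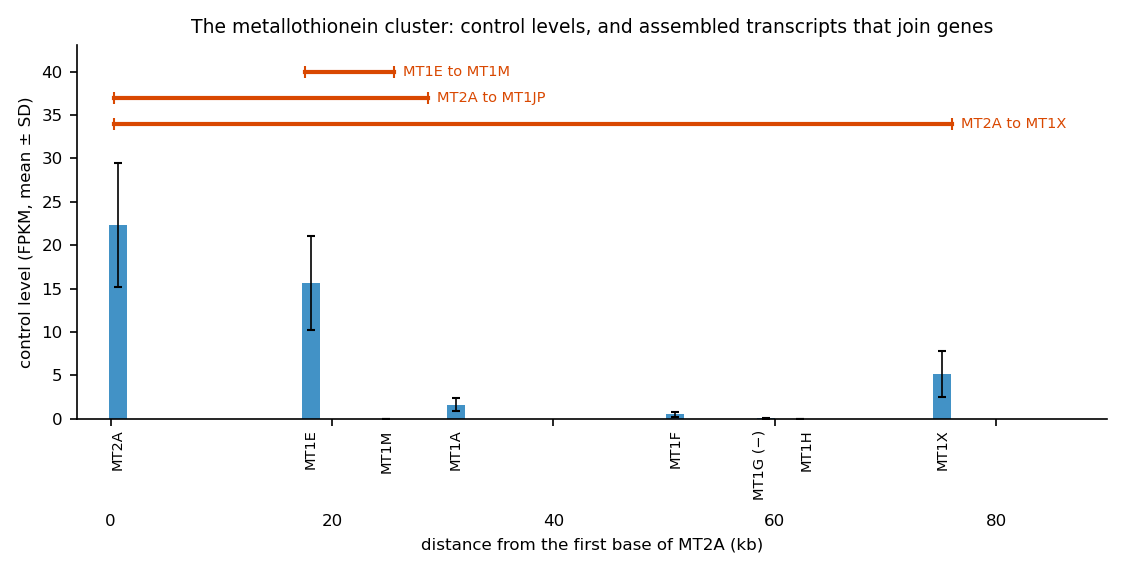
Bars give the mean level of each member in the 5 control libraries (FPKM, vertical axis, ± SD) at its distance in kb from the first base of MT2A (horizontal axis), and the lines above, at heights without meaning, give the extent of the 3 assembled transcripts that join genes. MT2A and MT1E stand highest at 22.3 and 15.6 FPKM, and MT1G, MT1H and MT1M, between them and MT1X, are at or near 0.

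Upstream windows of 250 bases were available from RefSeq (GRCh38.p14) for 3 of the 8 members, MT2A, MT1X and MT1H, and the remaining members MT1A, MT1E, MT1F, MT1G and MT1M had no entry. They are shown because MTF1 acts through this region and because they compare 2 expressed members with 1 that was near 0. Capitals mark the core of the metal response element, searched on both strands as TGCACNC or TGCGCNC, with N any base.
MT2A (chr16:56608334-56608583, plus strand): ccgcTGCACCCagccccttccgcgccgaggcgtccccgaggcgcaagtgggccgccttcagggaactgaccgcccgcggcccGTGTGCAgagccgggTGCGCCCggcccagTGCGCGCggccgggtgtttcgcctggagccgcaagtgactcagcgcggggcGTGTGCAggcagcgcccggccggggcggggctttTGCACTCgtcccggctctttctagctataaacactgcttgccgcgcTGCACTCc
MT1X (chr16:56682220-56682469, plus strand): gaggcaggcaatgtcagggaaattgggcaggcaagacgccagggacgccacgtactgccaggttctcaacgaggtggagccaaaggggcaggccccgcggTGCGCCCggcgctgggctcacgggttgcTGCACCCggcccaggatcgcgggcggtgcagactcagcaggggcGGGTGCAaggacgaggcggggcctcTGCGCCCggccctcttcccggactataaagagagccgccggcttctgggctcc
MT1H (chr16:56669564-56669813, plus strand): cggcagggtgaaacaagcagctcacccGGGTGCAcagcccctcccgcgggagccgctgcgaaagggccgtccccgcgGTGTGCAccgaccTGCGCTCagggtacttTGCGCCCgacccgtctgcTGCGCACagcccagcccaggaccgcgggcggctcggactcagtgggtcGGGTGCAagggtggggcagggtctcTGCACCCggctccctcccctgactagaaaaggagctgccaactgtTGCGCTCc
The window held 7 cores in MT2A, 4 in MT1X and 8 in MT1H. Of 35116 RefSeq windows of the same length, 24.8% held at least 1 core and 0.37% held 4 or more. The core GCGTG of the dioxin-responsive element, which the aryl hydrocarbon receptor binds, was found once in MT2A, where it overlapped a metal response core, and not in the windows of MT1X and MT1H. It occurred in 32.2% of all windows. The antioxidant response element core TGACNNNGC was found once in MT2A and once in MT1X, against 10.9% of all windows. A match is a description of the letters and not evidence of binding. In the files the main MT2A transcript starts upstream of its window, at base 56608199, and that of MT1X within its window, at base 56682424, so the files treat all of the first window and the end of the second as transcribed.

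The summed gene FPKM of a library ranged from 186215 to 450655, and 10 of the 40 libraries summed to at most 263117 while the next one stood at 290752. These 10 libraries of low sum comprised 1 control, 3 of 10 nM, 2 of 1 µM, 1 each of glyphosate at 10 µg/L and 0.1 g/L, and 2 of Roundup. The levels of the members moved with this sum: the median of MT1E was 6.81 FPKM in the libraries of low sum and 16.1 in the other 30, and the medians of MT2A were 13.8 and 20.6. The deposited values are not counts, so the number of fragments behind each value is not given and no counting interval was made. The paper reports the range of reads per sample, and read depth was not compared with these sums. Between 23130 and 32042 gene names were above 0 in a library. The 10 hepatocyte markers (ALB, APOA1 and others) were all expressed, with a summed level between 5500 and 24900 FPKM. A response to PCB 126 was present in the libraries labelled with 10 nM and 1 µM, as shown by CYP1A1, a main target of the aryl hydrocarbon receptor. CYP1A1 measured 2.33 ± 3.40 FPKM (SD, n = 5) in the control group, 268 ± 114 at 10 nM and 235 ± 108 at 1 µM. At 100 pM it ranged from 1.09 to 319 FPKM and overlapped the control group, which reached 7.69.

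The members were expressed in a steep order. In the control group, MT2A was at 22.3 ± 7.13 FPKM (SD, n = 5), MT1E at 15.6 ± 5.42, MT1X at 5.18 ± 2.69, MT1A at 1.64 ± 0.722 and MT1F at 0.521 ± 0.305. MT2A ranked 1592nd and MT1E 2394th among the 37703 gene names above 0 in the control group, whereas MT1A ranked 11231st and MT1F 15135th. MT1G was above 0 in 9 of the 40 libraries and reached at most 0.417 FPKM, MT1M in 5 libraries with at most 0.0688, and MT1H in 1 library, at 0.0841. The total of the 8 members was 45.4 ± 14.6 FPKM in the control group, of which MT2A made up 50.1% ± 6.96, MT1E 34% ± 2.87 and MT1X 10.9% ± 4.48. Over the 40 libraries MT2A ranged from 39% to 64.3% of the total. MT2A lay above MT1E in most of the libraries, and the ratio of MT1E to MT2A ranged from 0.352 to 1.11. The order and the shares depend on the transcript lengths used for FPKM. The main MT2A transcript had 786 bases in the deposited data and 401 in GENCODE release 44, whereas that of MT1E had 704 in both. The effect of these lengths on the order was not tested.

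**Figure D2:**
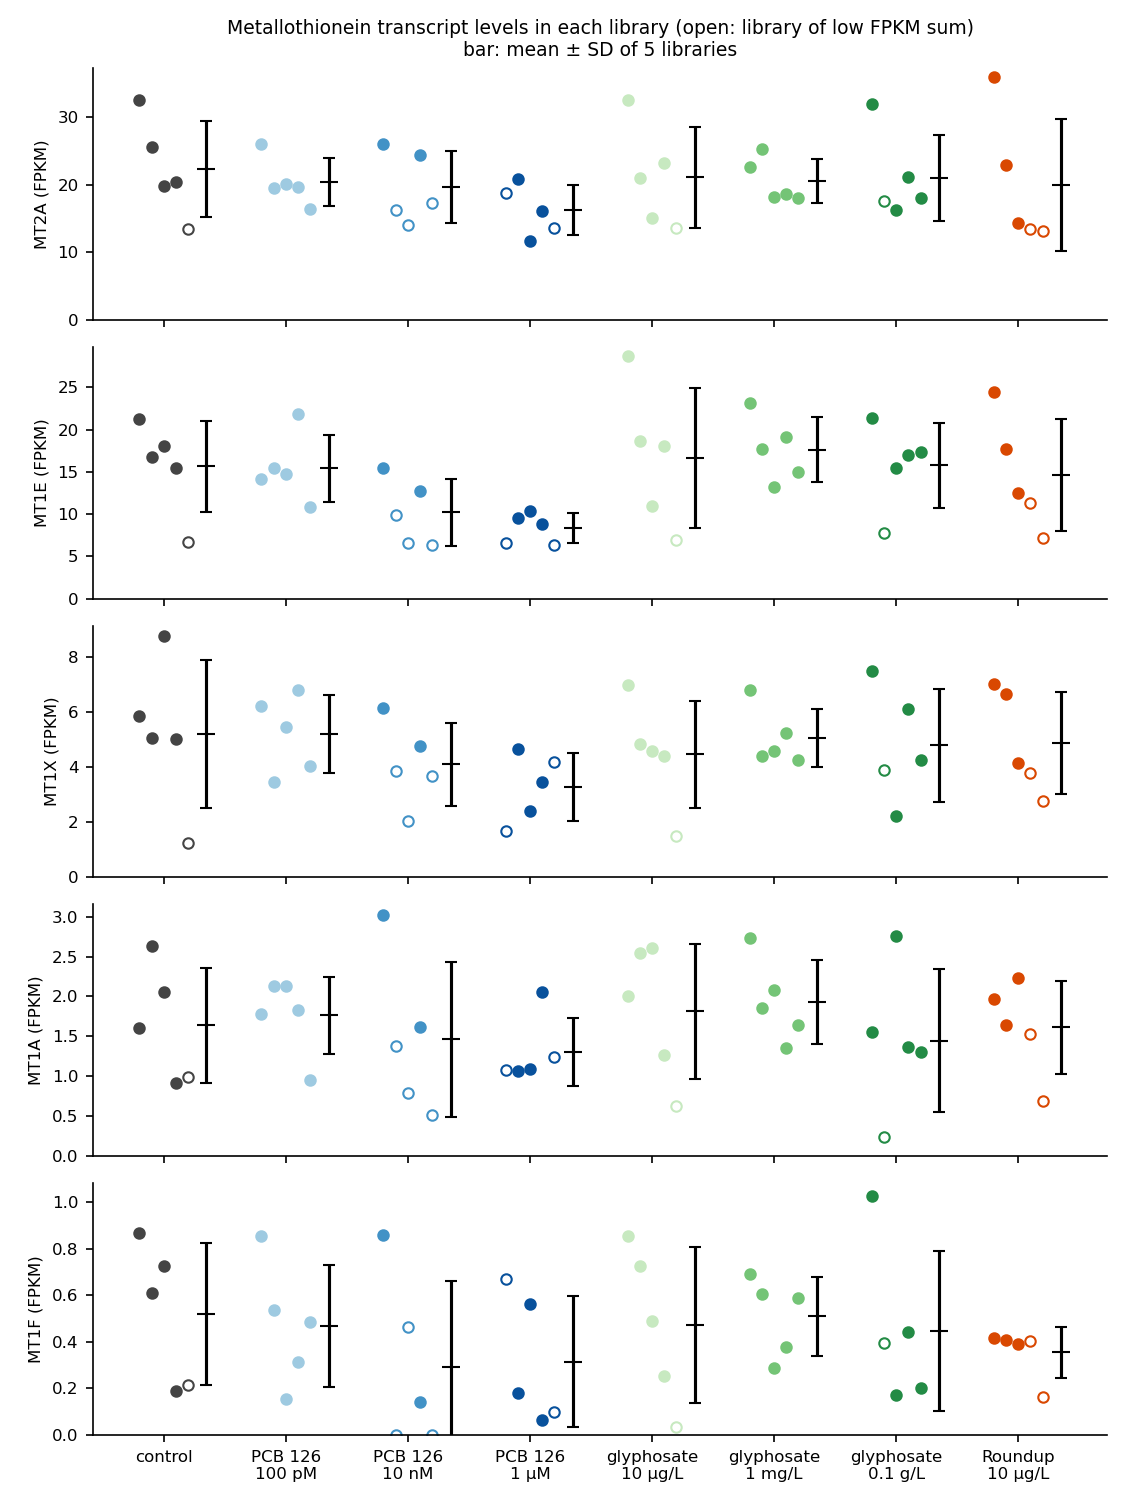
Level of MT2A, MT1E, MT1X, MT1A and MT1F (FPKM, vertical axes) in each of the 40 libraries, by group (horizontal axis), with open circles for the 10 libraries of low FPKM sum and bars for mean ± SD of 5 libraries. The groups overlap in every panel. In the MT1E panel the 5 libraries of 1 µM PCB 126 lie between 6.30 and 10.4 FPKM. There 4 of the 5 control libraries lie between 15.4 and 21.2, and control replicate 5 lies at 6.75.

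MT2A, the most abundant member, differed little between groups against its spread. Its 5 control libraries were at 32.5, 25.6, 19.8, 20.3 and 13.4 FPKM. At 1 µM PCB 126 they were at 18.8, 20.8, 11.6, 16.2 and 13.6 FPKM, a group that overlapped the control group. The control mean of 22.3 FPKM was the highest of the 8 groups and the mean of 16.2 ± 3.71 at 1 µM the lowest, with 20.4 ± 3.51 at 100 pM and 19.6 ± 5.32 at 10 nM. In the order of the 8 group means, 7 of 7 pairs of neighbouring groups overlapped and differed by less than 1 SD.

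MT1E was the member with the largest difference in FPKM. Its control libraries were at 21.2, 16.7, 18.1, 15.4 and 6.75 FPKM, and its libraries of 1 µM PCB 126 at 6.61, 9.55, 10.4, 8.86 and 6.30 FPKM. The groups overlapped through control replicate 5, a library of low sum, and the other 4 control libraries were all higher than every library of 1 µM. The share of all genes with this pattern on unscaled FPKM was not counted. At 10 nM the libraries were at 15.5, 9.86, 6.62, 12.7 and 6.33 FPKM, and 3 of these 5 were of low sum. At 100 pM they ran from 10.8 to 21.8 FPKM (median 14.7) and overlapped the control group. Against 15.6 ± 5.42 FPKM in the control group, the mean was 15.4 ± 3.99 with 100 pM, 10.2 ± 3.95 with 10 nM and 8.33 ± 1.80 with 1 µM (SD, n = 5 each).

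MT1X, MT1A and MT1F showed smaller differences in FPKM. MT1X was at 5.86, 5.06, 8.75, 5.03 and 1.23 FPKM in the control group and at 1.67, 4.64, 2.42, 3.45 and 4.18 FPKM at 1 µM, with overlapping groups. MT1A ran from 0.920 to 2.63 FPKM in the control group and from 1.07 to 2.05 at 1 µM. MT1F ran from 0.190 to 0.867 FPKM in the control group and from 0.0630 to 0.670 at 1 µM. Both pairs of ranges overlapped. As a ratio of its mean to the control mean, MT1F was at 0.562 at 10 nM and 0.606 at 1 µM, beside 0.653 and 0.533 for MT1E. The group means of MT1F were at most 0.521 FPKM. For MT1E, MT1X, MT1A and MT1F as well, 7 of 7 neighbours in the order of group means overlapped and differed by less than 1 SD. Neighbours in such an order lie close together, so this count does not compare the highest group with the lowest.

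The comparison of each PCB 126 concentration with the control asks whether the exposure changed the members, and none passed the test. It was made with limma on log2(FPKM + 1), over the 9755 genes whose FPKM had a variance above 1, with Benjamini-Hochberg adjustment over all of them and a threshold of 0.05. MT2A, MT1E and MT1X passed the filter, and MT1A, MT1F, MT1G, MT1H and MT1M did not. At 100 pM, 0 of the 3 members tested were called, where 0 genes (0%) were called in all, also by an ordinary linear model, and 116 had an unadjusted p under the threshold. At 10 nM it was 0 of 3, beside 20 of 9755 genes (0.205%), and at 1 µM 0 of 3, beside 182 genes (1.87%). An F-test across the 4 groups called 0 of 3, beside 136 genes (1.39%). The unadjusted p was under the threshold for no member at 100 pM and 10 nM, and for 1 of 3, MT1E, at 1 µM and in the F-test.

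At 1 µM the log2 fold change of MT1E was -0.77 (SE 0.29, 95% confidence interval -1.37 to -0.17, limma adjusted p = 0.212). At 10 nM it was -0.56 (interval -1.16 to 0.04, limma adjusted p = 0.865) and at 100 pM 0.03 (interval -0.57 to 0.63). For MT2A the log2 fold change at 1 µM was -0.41 (interval -0.93 to 0.11, limma adjusted p = 0.477), and for MT1X -0.44 (interval -1.11 to 0.23, limma adjusted p = 0.544). Over all genes tested the log2 fold changes had a median of -0.26 at 1 µM and -0.21 at 10 nM. The 2-sided exact permutation test of single members, over the 252 splits of 10 libraries and with 0.00794 as its smallest possible p, gave p = 0.0317 for MT1E at 1 µM. It was the lowest of 40 such tests (5 members in 8 comparisons), of which the other 39 gave exact p between 0.135 and 1.0. No adjustment was made over the members alone.

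**Figure D3:**
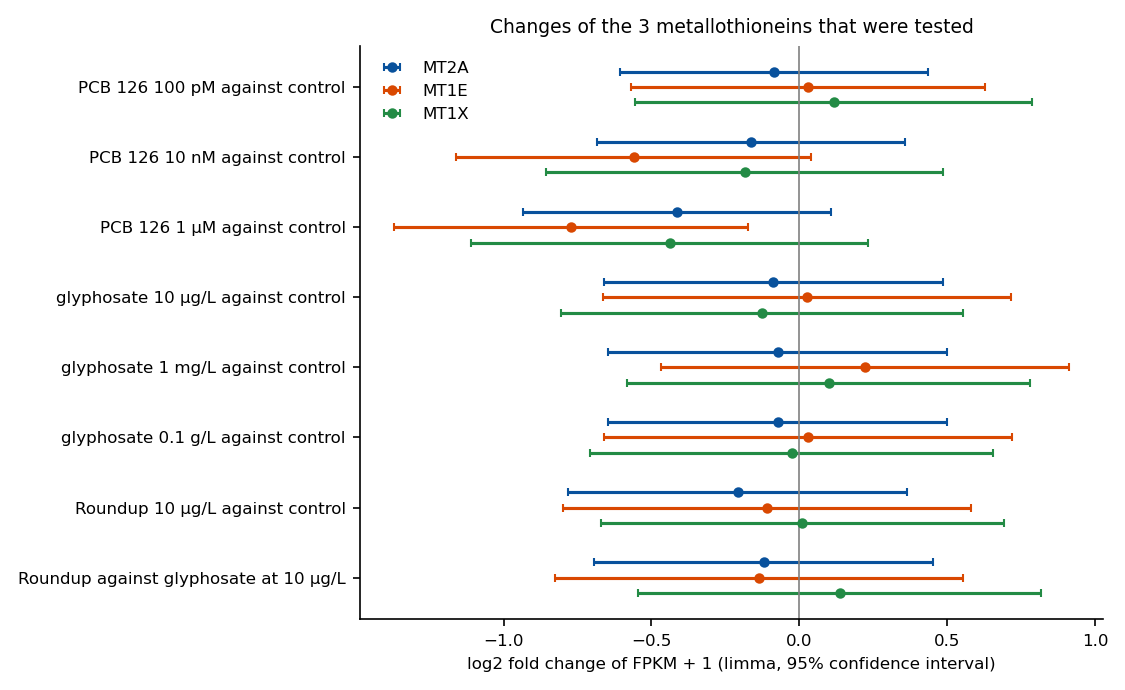
Log2 fold change of FPKM + 1 (horizontal axis, points, with 95% confidence intervals) for MT2A, MT1E and MT1X in the 8 comparisons (vertical axis). The interval of MT1E at 1 µM PCB 126, from -1.37 to -0.17, is the 1 interval of 24 that leaves out 0.

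The call for MT1E at 1 µM turned on the scaling of the libraries and on control replicate 5. Without this replicate, where 365 of 9703 genes were called, the log2 fold change of MT1E was -1.03 with a limma adjusted p of 0.0284. With each library scaled by its summed gene FPKM, an alternative chosen after seeing the data, it was -0.65 with a limma adjusted p of 0.0102, and with quantile normalization -0.56 with an adjusted p of 0.0143. Scaling by the 75th percentile gave -0.62 with an adjusted p of 0.0577. Leaving out the 10 libraries of low sum gave -0.83 with an adjusted p of 0.0247, from 4 control libraries at 17.9 ± 2.51 FPKM and 3 libraries of 1 µM at 9.59 ± 0.744. The direction was negative under each setting run. Under the scalings named here the list of called genes at 1 µM grew as well, to 590 with the 75th percentile, 890 with the summed FPKM and 1085 with quantiles, of 9755. The share of called genes that were higher was 34.6% as reported, 41.9% with the 75th percentile, 29.4% with the summed FPKM and 49.0% with quantiles.

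Relative to the summed gene FPKM of its library (per 1000000 of that sum), MT1E was at 51.8, 40.8, 50.7, 43.9 and 29.4 in the control libraries and at 26.2, 26.2, 27.5, 24 and 25.7 in the libraries of 1 µM. On this scale the groups did not overlap, with an exact permutation p of 0.00794, the smallest that 5 against 5 allows. The background is wide, as 797 of the 9755 genes tested (8.17%) lay lower at 1 µM without overlap on this scale. At 10 nM MT1E was between 26.3 and 41.5 and overlapped the control group (exact permutation p = 0.159). MT2A was at 62.8 ± 9.55 in the control group and 52.3 ± 16.2 at 1 µM, and MT1X at 14.2 ± 6.87 and 10.4 ± 4.50, both with overlap (exact permutation p = 0.19 and 0.413).

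**Figure D4:**
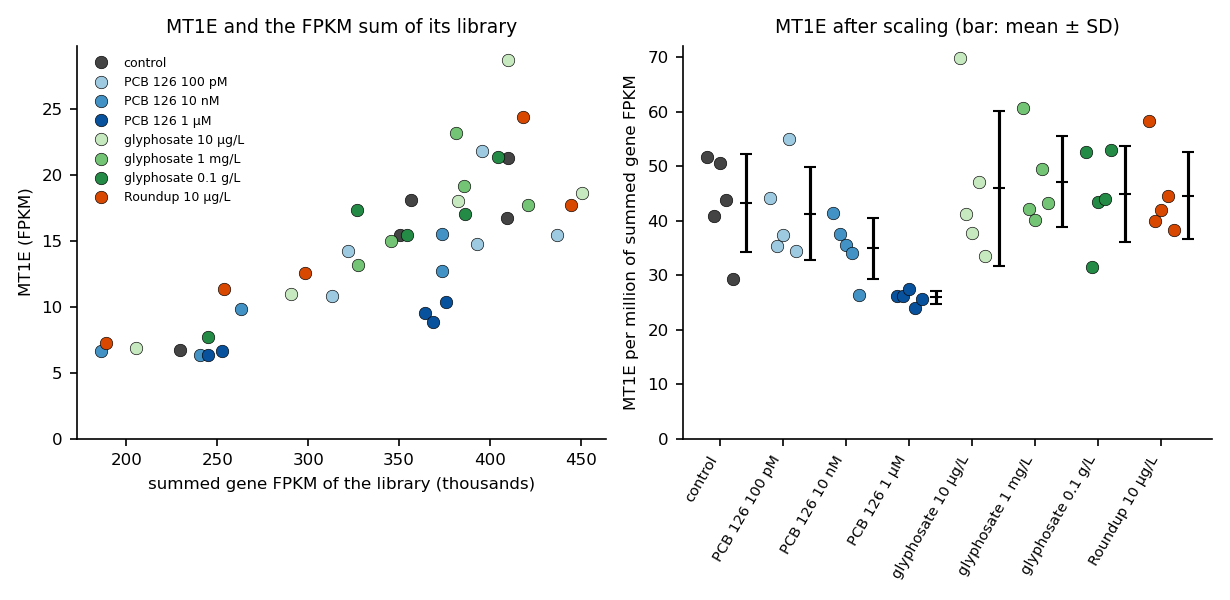
Left, MT1E (FPKM, vertical axis) against the summed gene FPKM of its library (horizontal axis), with 1 point per library coloured by group; right, MT1E per 1000000 of that sum by group, with bars for mean ± SD of 5 libraries. The 5 libraries of 1 µM PCB 126 lie between 24 and 27.5 in the right panel, and the control libraries between 29.4 and 51.8.

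**Figure D5:**
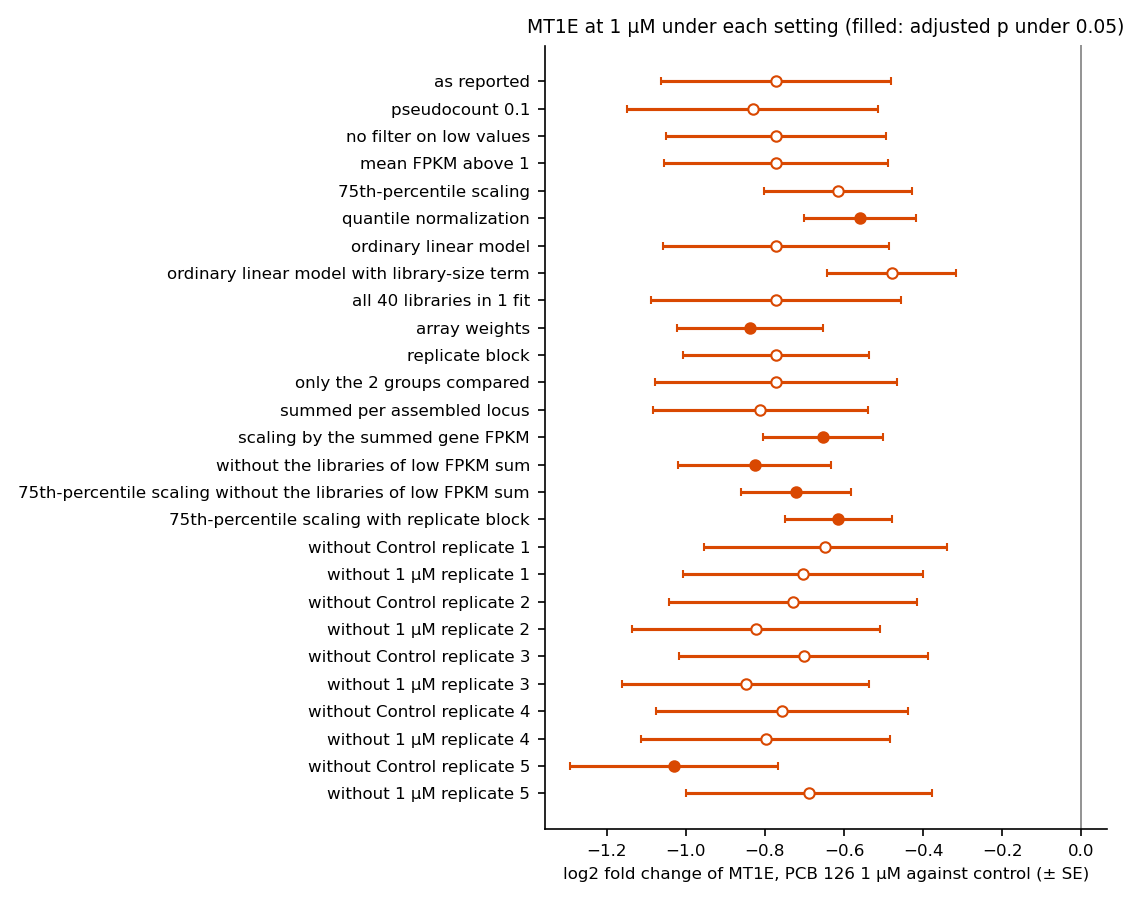
Log2 fold change of MT1E at 1 µM PCB 126 against control (horizontal axis, points ± SE) under each setting (vertical axis), filled where the adjusted p was under the threshold. Each point lies below 0, from -0.48 with a library-size term to -1.03 without control replicate 5.

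The transcripts that join genes of the cluster stood high in a few libraries. The transcript from MT2A to MT1X exceeded 1 FPKM in 5 of 40 libraries and was the highest, at 12.6 FPKM, in replicate 3 of 1 µM. In that library MT2A was at 11.6 FPKM, its lowest level among the 40, and MT1X at 2.42. The transcript from MT1E to MT1M exceeded 1 FPKM in 6 libraries, among them control replicate 5 at 1.52 FPKM. With values summed per assembled locus, which adds these transcripts back and merges MT2A with MT1X and MT1E with MT1M, the log2 fold change at 1 µM was -0.26 for the MT2A and MT1X locus (adjusted p = 0.611 in limma) and -0.81 for the MT1E locus (adjusted p = 0.0836 in limma). For MT1E the main transcript ENST00000306061 measured 12.5 ± 5.32 FPKM in the control group and 7.14 ± 1.45 at 1 µM, and ENST00000330439 measured 3.11 ± 1.95 and 1.19 ± 1.08.

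Glyphosate and Roundup were compared with the control, and with each other at 10 µg/L, over 9533 genes in the glyphosate table, with the same test. No comparison called a member among the 3 tested, and no gene at all was called at 10 µg/L (0%), 1 mg/L (0%) or 0.1 g/L (0%) of glyphosate, at 10 µg/L Roundup (0%), between Roundup and glyphosate (0%), or in the F-test across groups (0%). The limma test gave an unadjusted p under the threshold for 84 to 165 genes in these comparisons, and for none of the members, and an ordinary linear model also called 0 genes in each. With array weights, which did not converge here and called 3470 genes for Roundup against control and 4448 against glyphosate, MT1E and MT2A were called lower with Roundup in both. MT2A was at 21.1 ± 7.51 FPKM with 10 µg/L glyphosate, 20.5 ± 3.24 with 1 mg/L, 21 ± 6.38 with 0.1 g/L and 20.0 ± 9.80 with Roundup (SD, n = 5 each). MT1E was at 16.6 ± 8.33, 17.6 ± 3.87, 15.8 ± 5.00 and 14.6 ± 6.62 FPKM in the same order. These groups overlapped the control group for both genes.

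The spread left room for moderate differences. For MT1E the 95% confidence intervals of the log2 fold change against control ran from -0.66 to 0.72 at 10 µg/L glyphosate, -0.47 to 0.91 at 1 mg/L, -0.66 to 0.72 at 0.1 g/L and -0.80 to 0.58 for Roundup. For MT2A they lay between -0.78 and 0.50, and for MT1X between -0.81 and 0.78, over these 4 comparisons. Both Roundup and glyphosate were labelled 10 µg/L, and the labels do not say whether the Roundup dose counts the formulation or its glyphosate. At this labelled dose, Roundup minus glyphosate was -0.14 for MT1E (interval -0.83 to 0.55), -0.12 for MT2A (interval -0.70 to 0.45) and 0.14 for MT1X (interval -0.55 to 0.82) on the log2 scale. The limma adjusted p was 0.974 for each of the 3. MT1E was at 28.7, 18.6, 11, 18 and 6.88 FPKM with glyphosate at 10 µg/L and at 24.4, 17.7, 12.5, 11.3 and 7.22 with Roundup, and these groups overlapped over nearly their whole range. MT1X was at 4.46 ± 1.95 FPKM with glyphosate and 4.87 ± 1.86 with Roundup.

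Members that did not pass the filter were tested in a fit without it, over 43478 genes for PCB 126 and 44434 for glyphosate and Roundup. For MT1A and MT1F the limma adjusted p was between 0.775 and 1 in every comparison. MT1A was between 1.31 ± 0.424 FPKM (1 µM PCB 126) and 1.93 ± 0.523 (1 mg/L glyphosate) as a group mean, and MT1F between 0.292 ± 0.369 (10 nM) and 0.521 ± 0.305 (control). MT1G, MT1H and MT1M were listed at 0 in most libraries, and no fold change is given for them.

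The genes that sense and carry zinc and copper gave no call either. MTF1, the zinc sensor, measured 2.89 ± 0.868 FPKM in the control group and 2.60 ± 0.974 at 1 µM, and its variance kept it below the filter. SLC30A1, a zinc exporter that MTF1 switches on, measured 13.4 ± 3.31 and 13.1 ± 4.42 FPKM, with a log2 fold change of -0.06 at 1 µM. Of the 25 zinc genes listed, 16 were tested and 0 were called in any of the 8 comparisons, and at 1 µM their median log2 fold change was -0.26, beside -0.26 for all genes tested. SLC39A1, a zinc importer, had the smallest p of this list. Its 5 control libraries ranged widely, from 1.17 to 17.6 FPKM, and its log2 fold change was 1.39 at 1 µM (limma adjusted p = 0.121) and 1.64 at 1 mg/L glyphosate (limma adjusted p = 0.963). Of 12 genes of copper handling, 10 were tested and 0 called, with a median of -0.12 at 1 µM. Ceruloplasmin (CP), the copper carrier of plasma, stood at -0.91 (limma adjusted p = 0.216).

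Genes of other pathways known to act on metallothioneins were counted in the same way. Of 12 genes of the oxidative stress response, 10 were tested and 0 called in any comparison, with a median log2 fold change of 0.20 at 1 µM against -0.26 for all genes tested. Of 9 glucocorticoid receptor targets, 8 were tested, and at 1 µM 1 was higher and 1 lower. TAT, an enzyme of tyrosine breakdown, rose by 1.48 on the log2 scale (limma adjusted p = 0.00497), and SGK1, a kinase, fell by 1.78 (limma adjusted p = 0.000675). At 10 nM TAT alone was called, higher by 1.40. Of 14 acute-phase genes, 13 were tested and 2 fell at 1 µM, fibrinogen beta chain FGB by 1.37 (limma adjusted p = 0.0259) and orosomucoid ORM1 by 1.92 (limma adjusted p = 0.0456), with a median of -0.71. Of 6 aryl hydrocarbon receptor targets, 6 were tested and 5 rose at both 10 nM and 1 µM, namely CYP1A1, CYP1A2, CYP1B1, TIPARP and ALDH3A1. At 100 pM 0 of the 6 were called, with a median log2 fold change of 1.02. CYP1A1 rose by 6.61 and CYP1A2 by 6.16 on the log2 scale at 1 µM (limma adjusted p = 7.44e-05 and 2.29e-05). In the glyphosate table none of these genes was called.

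Of the cell type markers, 3 were called at 1 µM, and several lists had lower sums or medians there. Over all 9755 genes tested, 182 (1.87%) were called at 1 µM and the median log2 fold change was -0.26. The sums of FPKM given here are unscaled, and 2 libraries of 1 µM and 1 control library were of low FPKM sum. Of 10 hepatocyte markers, 10 were tested and 2 fell, TTR (the thyroxine carrier transthyretin) by 1.62 and CPS1 (an enzyme of the urea cycle) by 1.16 on the log2 scale, and the median of the list was -0.73. Their summed level ranged from 13500 to 19800 FPKM in the control group and from 5500 to 13600 at 1 µM, and none was at 0. For biliary and progenitor markers (4 of 10 tested, 0 called) the sums were 279 to 536 and 165 to 285 FPKM, with a median log2 fold change of -0.78. For proliferation markers (6 of 6 tested, 0 called) they were 51.0 to 139 and 35.1 to 76.7 FPKM, with a median of -0.67. Mesenchymal markers (6 of 9 tested) summed to 41.2 to 92.0 and 50.8 to 190 FPKM, with a median of -0.05, and their members differed in direction. COL3A1, a fibrillar collagen, fell by 3.07 on the log2 scale, whereas the proteoglycans DCN and LUM stood at 1.02 and 1.03 without passing the test (limma adjusted p = 0.0886 and 0.18). Macrophage and endothelial markers (2 of 8 tested, 0 called) summed to 3.06 to 12.4 and 3.13 to 5.29 FPKM. The part of these values in the level of MT1E was not tested, and in these bulk libraries fewer cells of a type and less RNA per cell cannot be told apart.

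Across the 40 libraries, the 3 tested members varied together, with a Pearson correlation of 0.744 for MT2A and MT1E, 0.702 for MT2A and MT1X and 0.762 for MT1E and MT1X, on log2(FPKM + 1). Most genes shared this pattern. Among 12643 genes with a mean above 1 FPKM, the median correlation with the mean of the 3 standardized members was 0.634, and 4267 genes exceeded 0.7. The summed gene FPKM of the library itself correlated at 0.804. The most alike genes were SPSB1 (0.914), HIST1H2AM (0.909), C1R (0.908), RAB20 (0.905) and TRIB1 (0.904), followed by PCNA, ASF1B, RPLP0, RPL3 and SLC25A5, down to 0.892. MTF1 correlated at 0.726 and SLC30A1 at 0.647. The points share libraries and their scaling, and these correlations are a description.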

How the data were processed

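Total RNA of the 40 libraries was depleted of ribosomal RNA and sequenced as read pairs of 75 bases. Alignment by the authors used HISAT2 and GRCh38, followed by StringTie with the annotation of Ensembl release 89. Their 2 deposited tables hold unpooled FPKM for 234960 transcripts. In some deposited columns a few values lie below 0, so these columns were treated as a score, and 4 and 6 such values were set to 0. No column was left unused. Transcripts without a gene name (35782) entered no gene.

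From these values FPKM were summed per gene name, and log2(FPKM + 1) was tested with limma 3.58.1 in R 4.3.3 (lmFit and eBayes), with 1 fit per table that held all of its groups, and without covariates. This was checked on simulated data with independent noise for each gene and library. The check therefore does not cover differences in FPKM sum between libraries, or shared runs. Genes with a variance of FPKM of 1 or less were left out. Single members were also compared with 2-sided exact permutation tests (scipy 1.17.1). Other steps used Python 3.11.15. FPKM are not counts, so no count test was used, and precision was limited by 5 libraries per group.

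Groups came from the labels. The labels give no replicate numbers, so libraries were numbered by the run of library numbers they fall in, which only names them. The members, the gene lists and the tests were chosen with earlier results of these data known. Named were all 8 members, CYP1A1, CYP1A2, MTF1, SLC30A1, at most 4 genes of a list by smallest p, and the 10 genes most alike. As alternatives, the results were recomputed with a pseudocount of 0.1, other filters, other scalings and models, array weights, a replicate block, sums per assembled locus, 2-group fits and leaving out each library in turn.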

Additional observations from a re-analysis of the deposited data

Results flagged for a closer look

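Of the 40 combinations of 5 members and 8 groups, 2 held a library that stood far from the other 4 of its group, measured as the gap to the nearest library over the range of the group, with 0.71 as the limit for 5 libraries. Chance alone gives about 1 in 20. MT1A was at 2.05 FPKM in replicate 4 of 1 µM PCB 126, where the next library was at 1.24 (gap over range 0.824). MT1F was at 0.161 FPKM in replicate 5 of 10 µg/L Roundup, a library of low FPKM sum, where the next library was at 0.391 (gap over range 0.908). Neither gene passed the filter on variance, and neither value enters a call.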

How the results depend on the processing

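No member was called in any of the 10 tests as reported. At 1 µM PCB 126 the count became 1, MT1E, under quantile normalization, array weights, scaling by the summed gene FPKM, leaving out the libraries of low FPKM sum, 75th-percentile scaling without those libraries, and 75th-percentile scaling with the replicate block; the 4 last were chosen after seeing the data. The adjusted p of MT1E there ranged from 0.00532 (array weights, log2 fold change -0.84) to 0.382 (no filter) over the settings that kept every library. Leaving out 1 library at a time gave counts from 0 to 1 and log2 fold changes from -1.03 to -0.65, with the call made without control replicate 5. In the F-test across PCB 126 groups the count became 1 under quantile normalization, array weights, scaling by the summed FPKM, 75th-percentile scaling without the libraries of low sum and 75th-percentile scaling with the replicate block. With array weights in the glyphosate table the count became 2 (MT1E and MT2A) for Roundup against control, Roundup against glyphosate and the F-test; those weights did not converge and gave 1 Roundup library a weight of 30.4. The log2 fold changes under them were -0.45 and -0.64 against control and -0.57 and -0.66 against glyphosate. The other settings left each count at 0. The number of all genes called also moved. At 1 µM it was 182 as reported, between 118 and 365 with 1 library left out (365 without control replicate 5), 357 with the replicate block and 1085 with quantiles, the highest. At 10 nM it was 20 as reported and between 1 and 239, and in the PCB 126 F-test 136 and between 70 and 915. With glyphosate and Roundup it stayed between 0 and 3 apart from array weights, which called 3470 genes for Roundup against control, 4448 for Roundup against glyphosate and 5527 in the F-test.

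The library numbers in the labels fall into 5 runs of 8, each with 1 library of every group, and the replicate number is that of the run. The labels do not say that a run is a shared batch. Of 30 same-numbered pairs of PCB 126 and control libraries, 7 had deviations from the group means that correlated above 0.1 (median 0.0634, against -0.0182 for other pairs), and of 50 pairs among the glyphosate, Roundup and control libraries 19 did (median 0.0688). Since not every pair exceeded 0.1, the numbers were not taken to pair the samples, but this criterion cannot exclude a shared run. With 5 numbers to match, 9 of 20 and 18 of 25 libraries correlated best with their own number, a hint from the data of a shared run. The tests as reported held no term for the run. Within runs, MT1E was lower than the control library in 5 of 5 runs at 10 nM (log2 differences -1.32 to -0.08) and in 5 of 5 at 1 µM (-1.55 to -0.09). The share of all genes lower in 5 of 5 runs was not counted, so this is a description. With the replicate block the counts stayed at 0 in every comparison, and MT1E at 1 µM had an adjusted p of 0.0801. Precision was limited by 5 libraries per group.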

Other observations

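Of 12 further metallothionein genes and pseudogenes listed, 11 were in the files and none passed the filter on variance. MT1HL1 and MT1CP were at 0 in every library, MT1B and MT3 were above 0 in 1 library each and MT1L in 2. MT1P3 reached 1.08 FPKM, MT1XP1 1.00 and MT1DP 0.863. MT4 was chosen after its values were seen. It lay between 0 and 0.296 FPKM in the control group and between 0.277 and 0.847 at 1 µM PCB 126, with overlapping groups, and in the fit without a filter its log2 fold change was 0.46 (limma adjusted p = 0.13).

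MT2P1, a pseudogene of MT2A on chromosome 4 (68376323 to 68376505), was also chosen after its values were seen and was on no list. It was above 0 in all 40 libraries, at 1.52 ± 0.70 FPKM in the control group and 2.46 ± 0.528 at 1 µM (SD, n = 5), and reached 5.82 FPKM in 1 library of Roundup. It passed the filter in the glyphosate table, where its limma adjusted p was between 0.902 and 1 in the 5 comparisons.

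In 6 of 8 groups the highest MT2A level was in the library numbered 1, at 28.3 FPKM on average over the groups, and in 5 of 8 groups the lowest was in the library numbered 5, at 15.5 FPKM on average. For MT1E the library numbered 5 was the lowest in 6 of 8 groups. The library numbered 5 was of low FPKM sum in the control, 10 nM, 1 µM, 10 µg/L glyphosate and Roundup groups. Relative to the summed gene FPKM, MT2A in these libraries was at 58.5, 71.9, 55.4, 66.5 and 69.4. The lowest of each group was 55.6, 61.4, 31.0, 46.4 and 48.2. On this scale their MT1E was 29.4, 26.3, 25.7, 33.5 and 38.3, the lowest of each group except at 1 µM. The share of all genes with this order was not counted.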
